A study of Homo sapiens with 32 samples.

Results

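ZNF143 ChIP-seq summits that lie no more than 50 bp from the 5′ end of a protein-coding gene, on either side of it, number 1752, which is 10.8% of the 16165 summits that the deposited ZNF143 list holds on chromosomes 1 to 22 and X. A summit is a position of locally highest signal in a called peak, and a peak can hold more than 1. Each summit was assigned to its nearest 5′ end in GENCODE 44 (hg38), and only its distance from that end decided whether it was counted. The cells were HEK293T, an established human embryonic kidney line, in 1 clone (HEK_CloneZD29) whose ZNF143 carries an inducible degron, a domain that lets a small molecule direct the fused protein to the proteasome. All 10 groups share that degron: cells left without the drug or treated for 30 minutes with 50 nM dTAGV-1, each precipitated with anti-HA for ZNF143, anti-SP1, anti-NRF1 (written Nrf1 in the labels), anti-YY1 or a mock precipitation. SP1, NRF1 and YY1 had 4 samples per group, and ZNF143 and the mock had 2, for 32 samples in all. The labels attach the ZNF143 and SP1 lists to untreated and treated samples alike and name no list for NRF1 or YY1. No list gives a value per sample, so treated and untreated cells were not compared, the spread between replicates and the read depth are unknown, and the 95% intervals below, Wilson intervals for shares and Woolf intervals for odds ratios, cover counting error among summits or genes only.

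ZNF143 is a zinc finger transcription factor found mostly at promoters, where it recognises a long composite sequence. One end of that sequence is a conserved core that begins with CCCA, and the other end can carry the hexamer ACTACA, an element also linked to THAP11 and its partner HCFC1. SP1 binds GC boxes, NRF1 binds palindromic GC-rich sites and drives many genes of mitochondrial and basic cell function, and YY1 binds sites with the letters ATGG that often lie just inside the transcribed region.

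The first set below gives 6 promoters from among the 20 highest ZNF143 scores, picked to show these letters, each running from 45 bases before the summit (in the gene's direction) towards the 5′ end and stopping short of any annotated exon. The score is the authors' −log10 value for each summit, in which a higher number marks a stronger call. Positions are hg38 and the gene's strand is printed 5′ to 3′. GSPT1, which encodes the translation termination factor eRF3a, lies at chr16:11916083-11916150 on the minus strand. VPS50, an endosomal recycling subunit, lies at chr7:93232259-93232339 on the plus strand. LAMTOR2, a subunit of the lysosomal Ragulator complex, lies at chr1:156054693-156054781 on the plus strand. NTHL1, a DNA glycosylase, lies at chr16:2047867-2047940 on the minus strand. NCLN, a membrane protein of the endoplasmic reticulum, lies at chr19:3185480-3185562 on the plus strand. TSNAXIP1, at the highest-scoring summit of all 1752, lies at chr16:67806693-67806764 on the plus strand, with its hexamer beyond the stretch shown. Capitals mark ACTACA, its reverse complement TGTAGT, or the core CCCANNATG on either strand, where N is any base.
GSPT1: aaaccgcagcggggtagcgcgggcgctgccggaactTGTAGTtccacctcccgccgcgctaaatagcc
VPS50: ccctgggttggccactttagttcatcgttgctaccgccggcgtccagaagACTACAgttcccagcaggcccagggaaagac
LAMTOR2: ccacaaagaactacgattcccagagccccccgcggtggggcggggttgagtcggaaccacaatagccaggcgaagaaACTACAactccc
NTHL1: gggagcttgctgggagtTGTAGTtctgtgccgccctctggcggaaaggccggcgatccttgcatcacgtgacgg
NCLN: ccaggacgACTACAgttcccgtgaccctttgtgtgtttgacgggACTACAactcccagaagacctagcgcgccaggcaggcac
TSNAXIP1: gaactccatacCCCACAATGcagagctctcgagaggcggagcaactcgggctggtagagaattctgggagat

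A second set shows the core and the hexamer together, which is the arrangement with the highest median score. HSPH1, a cytosolic chaperone of the HSP110 family, lies at chr13:31162389-31162434 on the minus strand. ZUP1, a deubiquitinase, lies at chr6:116668795-116668872 on the minus strand and has a second core on the opposite strand. ARL10, a small GTPase-like gene, lies at chr5:176365395-176365485 on the plus strand with both elements on the opposite strand. SIRT4, a mitochondrial sirtuin, and CDC45, a component of the replicative helicase, have their summits downstream of the 5′ end in an untranslated region, and the 30 bases shown for each hold the pair and span the 5′ end, at chr12:120302302-120302331 and chr22:19479439-19479468, both on the plus strand. HOXD8, a homeobox gene at chr2:176129639-176129693 on the plus strand, is shown as a weak summit with neither element.
HSPH1: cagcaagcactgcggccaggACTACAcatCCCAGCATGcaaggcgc
ZUP1: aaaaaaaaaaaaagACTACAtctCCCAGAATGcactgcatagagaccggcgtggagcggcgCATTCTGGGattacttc
ARL10: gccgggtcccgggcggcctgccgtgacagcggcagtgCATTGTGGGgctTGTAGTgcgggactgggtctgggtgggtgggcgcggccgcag
SIRT4: ggACTACAtgtCCCAAAATGcaaatgcaat
CDC45: gACTACActaCCCACAATGcactacccaga
HOXD8: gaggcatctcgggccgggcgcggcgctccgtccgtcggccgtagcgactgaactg

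In HSPH1, SIRT4 and CDC45 the hexamer stood upstream of the core with 3 bases between them. Among the members, the hexamer was followed by the core on the same strand, with 0 to 20 bases between, 25 times, and all 25 had 3 bases between. The same spacing appeared with only the first letters of the core: of 212 copies of ACTACA with 16 further bases inside the window, 138 (65.1%) had CCCA 3 bases later, against at most 1 copy at any other spacing from 0 to 12. This count was made after the pairs had been seen, and it is a description of letters within 50 bp of these summits.

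The 1752 summits lay in 1743 peaks and were nearest to 1751 genes, and TMEM121B was the one gene with 2 of them. Of all 19970 protein-coding genes, 1840 (9.21%) had a ZNF143 summit within 50 bp of the 5′ end. A second 5′ end lay within 50 bp of 84 summits, so these genes outnumber the summits. A total of 263 (15.0%) belonged to head-to-head promoters, where a gene on the opposite strand starts within 500 bp upstream. Their median score was 51.6, against 32.6 for the others. The share of head-to-head promoters among all protein-coding 5′ ends was not counted. Counted separately over the 1752, 427 summits (24.4%) shared a peak with another ZNF143 summit, so neighbouring summits are not independent. This share was not counted over the whole list.

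Summits sat more often just before the 5′ end than after it. Upstream of the 5′ end lay 1007 members (57.5%), 16 lay exactly on it, and the median position was −8 bp with quartiles at −28 and 17 bp, where negative values are upstream in the gene's direction. In windows of 50 bp, 672 summits lay at −100 to −51 bp, 1007 at −50 to −1 bp, 737 at 0 to 49 bp and 446 at 50 to 99 bp. By annotation, 721 members (41.2%) fell in an untranslated region, 688 (39.3%) between genes, 142 (8.11%) in an exon of a noncoding transcript, 142 (8.11%) in an intron and 59 (3.37%) in a coding exon. These shares were not counted over the whole list, and the limit of 50 bp by itself places members at the border of a gene. Just inside the limit, at 46 to 50 bp, 166 summits had a median score of 39.7, and just outside it, at 51 to 55 bp, 143 had a median of 55.6.

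**Figure D1:**
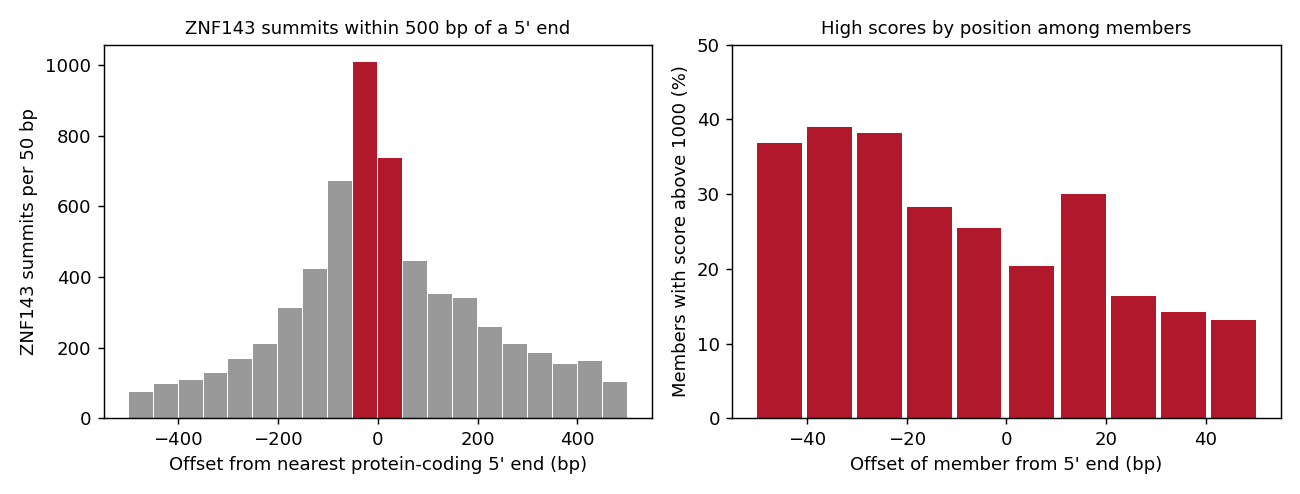
Left, the number of ZNF143 summits per 50 bp against the distance from the nearest protein-coding 5′ end in bp, with the members in red. Right, the percentage of members with a score above 1000 in steps of 10 bp, which was 38.2% at −30 to −21 bp and 13.1% at 41 to 50 bp.

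The members fell into a large weak group and a smaller strong one. Scores ran from 2.00 to 38279 with a median of 34.5 and quartiles of 10.6 and 1378. Up to 10 there were 412 members, between 10 and 100 there were 671, between 100 and 1000 only 187, and above 1000 again 482 (27.5%). Strong summits lay further upstream: above 1000 the median position was −19 bp, and up to 10 it was 1 bp. A score above 1000 was found for 339 of the 1007 members upstream of the 5′ end (33.7%, interval 30.8 to 36.6%) and for 143 of the 745 at or after it (19.2%, 16.5 to 22.2%).

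Compared with the surrounding sequence, ZNF143 scores at the 5′ end were higher than downstream of it and closer to those upstream. The median was 22.7 for the 2190 summits 51 to 500 bp upstream and 8.81 for the 2202 summits 51 to 500 bp downstream. The 90th percentile was 5620 at members, lower than the 7884 upstream and higher than the 776 downstream. A score above the median of the whole list was found for 69.5% of members, 58.9% of upstream summits (odds ratio 1.59, adjusted p = 6.82e-12) and 38.1% of downstream summits (odds ratio 3.70, adjusted p = 2.05e-86; two-sided Fisher's exact tests, Benjamini-Hochberg over 10 comparisons). Among the top 50% of the list, against their own median, the odds ratio to upstream turned to 0.905 (Fisher's exact test, adjusted p = 0.277), that to downstream was 1.74, and 23.2% of members and 23.2% of upstream summits were in the top 10% of the list.

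**Figure D2:**
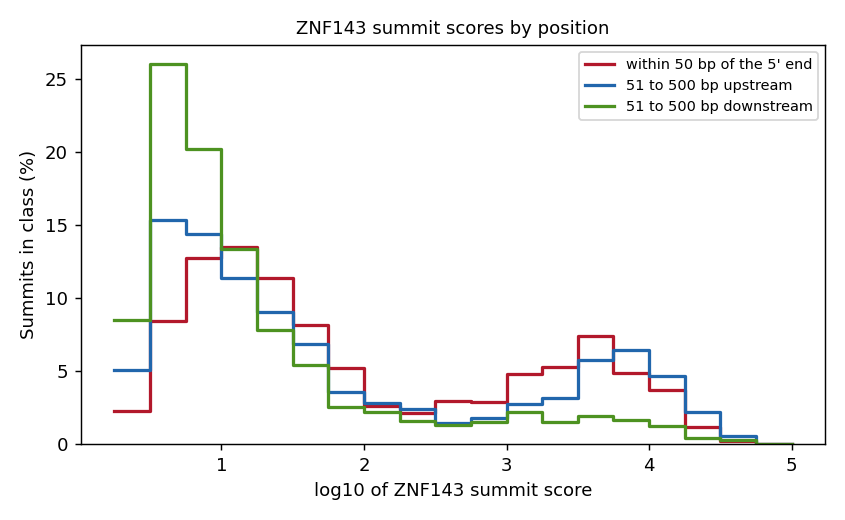
Percentage of summits in each class against the log10 of the ZNF143 score, for summits within 50 bp of the 5′ end, 51 to 500 bp upstream and 51 to 500 bp downstream. All 3 classes have a main mode below 100, and a second mode above 1000 is tall at and upstream of the 5′ end, where 27.5% and 25.7% of summits exceed 1000, and low downstream with 9.36%.

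The 20 highest-scoring members, with scores from 19214 to 38279, belonged to genes of many basic functions. TSNAXIP1 came first at 38279, with its summit at −27 bp from the 5′ end. CLPB, a mitochondrial protein disaggregase, followed at 36829 with a summit at 48 bp. LYSMD1 had 35744, GSPT1 33395, LAMTOR2 27725 and ARV1, a lipid homeostasis protein of the endoplasmic reticulum, 27684. CHCHD4, the import oxidoreductase of the mitochondrial intermembrane space, had 21645, GATB, a subunit of the mitochondrial glutamyl-tRNA amidotransferase, 20121, SIRT4 19427, and TMEM70, a mitochondrial assembly factor of ATP synthase, 21804. LARS1, the cytosolic leucyl-tRNA synthetase, had 21734, PEX26, a peroxisome biogenesis factor, 20616, INTS9, an Integrator subunit, 22573, and CDC45 19389. Of the 20 summits, 15 lay upstream of the 5′ end, 14 had the hexamer ACTACA within 50 bp and 4 of those 14 also had the core. SP1 lay within 100 bp of 19 of the 20 and within 10 bp of 10, YY1 lay within 100 bp of 19, and NRF1 lay within 100 bp of 13. At CDC45, for instance, the SP1 summit lay at −36 bp from the ZNF143 summit, and YY1, with a score of 30141 in its own list, lay at 56 bp.

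High scores went with the known ZNF143 letters. The core CCCANNATG lay within 50 bp of 113 members (6.45%, interval 5.39 to 7.70%), against 6.63% of all ZNF143 summits, 5.71% upstream (odds ratio 1.14, adjusted p = 0.346, 95% interval of the ratio 0.876 to 1.48) and 3.09% downstream (odds ratio 2.16, adjusted p = 8.79e-07; Fisher's exact tests over the same 10 comparisons). With 25 bp as the limit of a gene start, the odds ratio against upstream was 1.44 (Fisher's exact test, adjusted p = 0.0152). At all protein-coding 5′ ends, in windows of the same length, the core occurred in 1.78%. Of the 113 members with a core, 102 (90.3%) scored above the members' median, against 47.1% of those without (odds ratio 10.4, adjusted p = 1.88e-20, Fisher's exact test over 4 comparisons). With 1 mismatch allowed, this ratio was 3.53 and that of the core against downstream 1.37.

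The hexamer ACTACA marked the strong group still more sharply. It occurred within 50 bp of 196 of the 482 members above 1000 (40.7%, interval 36.4 to 45.1%), and of 6 (1.46%), 7 (1.04%) and 2 (1.07%) members in the 3 lower score classes. All protein-coding 5′ ends held it in 2.95%. Of all members, 211 (12.04%) held the hexamer, against 14.8% of upstream and 5.09% of downstream summits. Its share was thus not largest at gene starts, and these shares were not tested. Over the same score classes the core rose in steps instead, from 0.971% and 1.34% to 7.49% and 17.8%. Members with both elements numbered 31 and had a median score of 6681, those with the hexamer alone numbered 180 with 5374, those with the core alone 82 with 2012, and the 1459 with neither had 23.4. Still, 230 of the 482 members above 1000 had neither exact element. EIF2AK3, the stress kinase PERK, had both and a score of 11645.

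The places and directions of the elements were described but not tested. The hexamer lay upstream of the 5′ end in 178 of 230 copies (77.4%), with a median of −32 bp, and 146 copies read in the gene's direction. The core had a median of −3.5 bp over 116 copies, of which 71 read in the gene's direction. Copies of the YY1 letters AANATGGCG lay at a median of 22 bp downstream of the 5′ end, and 85 of 108 read in the gene's direction. GC boxes (GGGCGG) had a median of −18.5 bp over 799 copies, 436 of them in the gene's direction. A search of all 6-base words, again after the scores were known, found CTGGGA or its complement TCCCAG in 51.9% of members above 1000 and in 11.2% of those up to 10, and TTCCCA in 32.2% and 5.83%.

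Some other promoter letters had larger shares in weak members than in strong ones, which was not tested. Members with scores up to 10 held a GC box in 39.1%, against 29.5% above 1000, and the ETS core CCGGAAG in 21.1%, against 13.9%. Over all members the ETS core occurred in 21.5% (interval 19.6 to 23.4%), against 8.68% of upstream summits, 6.40% of downstream summits and 7.31% of all protein-coding 5′ ends. The YY1 letters occurred in 5.99%, against 2.15%, 3.04% and 2.37%. A TATA box was rare, in 0.913% of members against 5.01% of all 5′ ends. The GC content of the windows had a median of 66.3% at members, 64.4% upstream, 69.3% downstream and 63.4% at all 5′ ends, and its part in these shares was not tested.

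**Figure D3:**
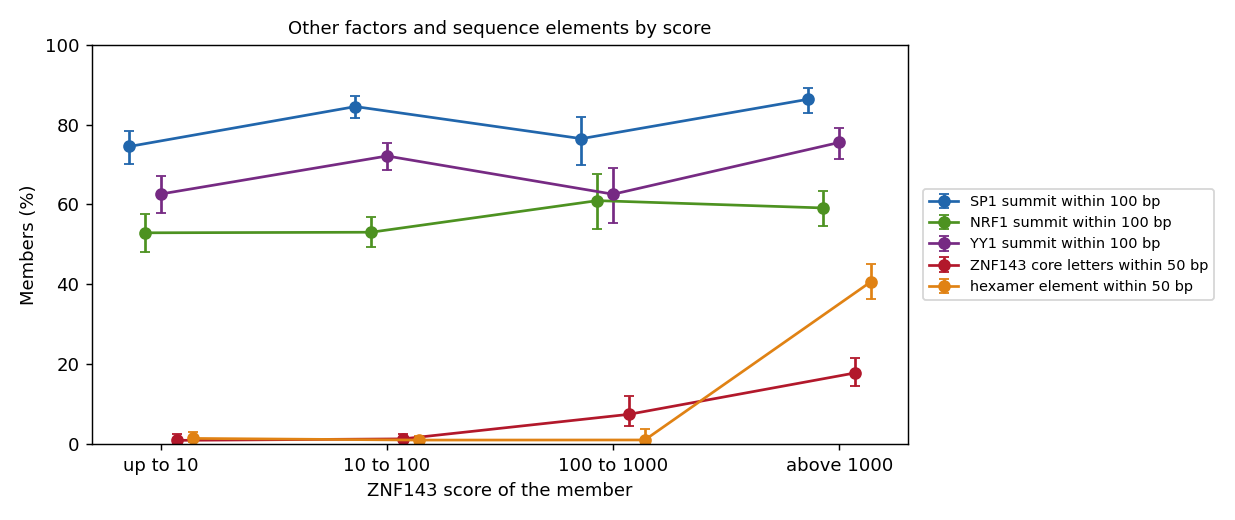
Percentage of members with each feature against the ZNF143 score class, with Wilson 95% intervals. The hexamer element (orange, ACTACA) stands at 40.7% above 1000 and at 1.46% or less below, the core (red) rises to 17.8%, and SP1, YY1 and NRF1 vary less, between 74.5% and 86.3%, 62.6% and 75.5%, and 52.9% and 61.0%.

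SP1, NRF1 and YY1 summits were all more common around ZNF143 summits at gene starts than around those on either side. SP1 lay within 100 bp of 1433 members (81.8%), against 53.8% of all ZNF143 summits, 63.9% upstream (odds ratio 2.53, adjusted p = 9.16e-36) and 44.3% downstream (odds ratio 5.64, adjusted p = 4.30e-132; Fisher's exact tests). YY1 lay within 100 bp of 1223 (69.8%), against 8241 of all 16165 (51%), 58.1% upstream (odds ratio 1.67, adjusted p = 8.00e-14) and 61.8% downstream (odds ratio 1.43, adjusted p = 2.16e-07; exact tests). NRF1 lay within 100 bp of 973 (55.5%), against 29.3% of all, 47.6% upstream (odds ratio 1.37, adjusted p = 8.79e-07) and 30.7% downstream (odds ratio 2.81, adjusted p = 2.80e-55; exact tests). These are two-sided Fisher's exact tests on summits of 1 list, adjusted over the 10 comparisons. With lists of equal length the SP1 ratios were 1.40 and 3.46, and with canonical transcripts SP1 against downstream was 10.1. The NRF1 difference from upstream was lost at a distance of 250 bp (exact test, odds ratio 1.15, adjusted p = 0.0869) and among the top 50% of ZNF143 summits (odds ratio 1.09, adjusted p = 0.311).

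All 3 factors lay within 100 bp of 627 members (35.8%), the largest class, and SP1 with YY1 but not NRF1 lay near 442 (25.2%). SP1 with NRF1 alone lay near 202, SP1 alone near 162, YY1 alone near 90, NRF1 alone near 80 and NRF1 with YY1 near 64. None of the 3 lay near 85 (4.85%). These combinations were counted at members only, so no share over all ZNF143 summits stands beside them. Median ZNF143 scores were 47.3 with all 3 and 15.9 with none. Even so, strong summits occurred without neighbours: SH2B1, a signalling adaptor, had 4926, SGF29, a subunit of the SAGA coactivator, 3882, ARL10 3356, WWOX, an oxidoreductase and tumour suppressor, 2899, and TMEM138 2723. At SH2B1 the nearest SP1, NRF1 and YY1 summits lay at −161, −205 and −304 bp from the ZNF143 summit.

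At members, YY1 lay mainly downstream of ZNF143, and SP1 and NRF1 more often upstream. Read in the gene's direction, the nearest SP1 summit within 100 bp was upstream of the ZNF143 summit in 60.8% of cases (interval 58.3 to 63.3%) with a median of −11 bp, and the nearest NRF1 summit in 58.2% (55.04 to 61.3%) with a median of −12 bp. YY1 was upstream in only 29.5% (27.0 to 32.1%), and its median was 26 bp downstream. Over all members, the nearest summit was 37 bp away for SP1, 58.5 bp for YY1 and 84 bp for NRF1 at the median. At the strong members, above 1000, SP1 lay on both sides, with 49.4% upstream (44.6 to 54.2%) and a median of 1 bp, while at members up to 10 it was upstream in 66.0% (60.5 to 71.1%). NRF1 was upstream at 52.8% of strong members (47.0 to 58.6%, median −5 bp) and at 59.5% of those up to 10 (52.9 to 65.9%). YY1 was mainly downstream in both, with 22.7% and 30.1% upstream. These differences between strong and weak members were not tested, and the 2 groups also differed in place, with median positions of −19 and 1 bp.

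**Figure D4:**
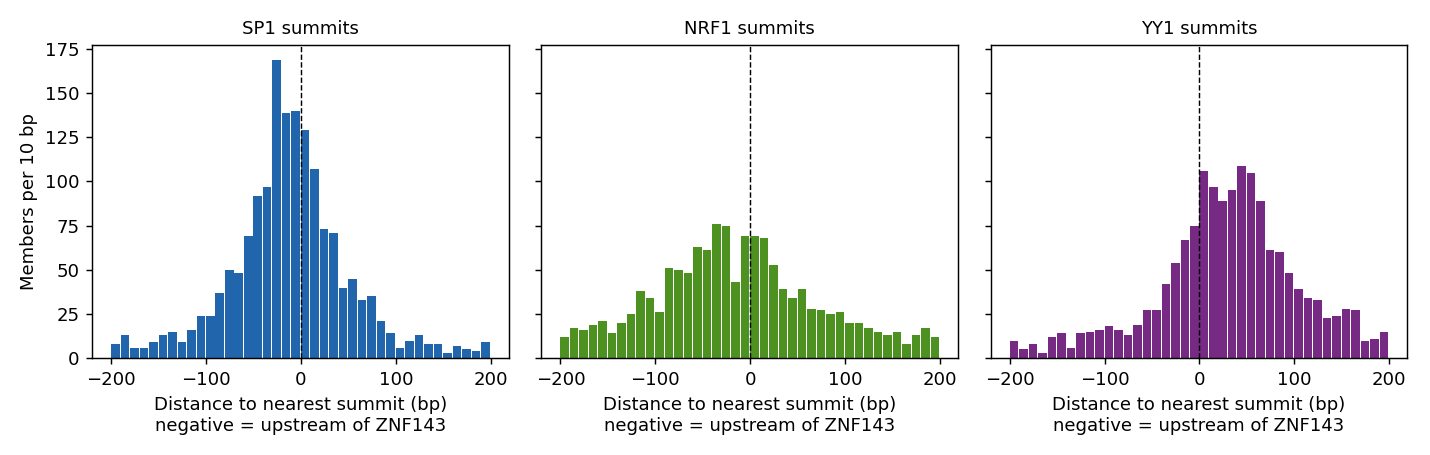
Number of members per 10 bp against the distance from the ZNF143 summit to the nearest SP1, NRF1 or YY1 summit in bp, in the gene's direction and with negative values upstream. SP1 peaks just upstream of ZNF143 (median −11 bp within 100 bp), NRF1 is broad, and YY1 lies mainly downstream (median 26 bp).

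Measured from the 5′ end itself, SP1 and NRF1 again lay mostly upstream and YY1 mostly downstream. At the 1840 gene starts with a ZNF143 summit, the nearest SP1, NRF1 and YY1 summits within 250 bp had medians of −21, −23.5 and 30 bp. At the 13647 starts with no ZNF143 summit within 500 bp they were −39, −24 and 72 bp. SP1 was found within 50 bp of 57.4% of starts with ZNF143, 11.2% of those without and 17.9% of all protein-coding 5′ ends. For NRF1 these shares were 32.9%, 7.86% and 14.2%, and for YY1 42.6%, 6.30% and 11.2%. The lists hold no expression values, so starts with and without ZNF143 were not matched for gene activity. The scores of neighbours within 100 bp of a member were high in their own lists: the median SP1 summit near a member scored 282 and stood at percentile 91.6 of its list, YY1 scored 362 at percentile 95.9 and NRF1 44.9 at percentile 81.5. Each list holds summits at and away from promoters, and summits at other gene starts were not ranked in this way.

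Members upstream and downstream of the 5′ end differed in SP1 and NRF1, by amounts that moved with the settings. SP1 lay within 100 bp of 84.9% of upstream and 77.6% of downstream members (odds ratio 1.63, adjusted p = 0.000403), and NRF1 of 58.0% and 52.2% (odds ratio 1.26, adjusted p = 0.0344; Fisher's exact tests over 4 comparisons). Both calls were lost with 25 bp as the limit of a gene start, with neighbours counted to 250 bp, among the top 50% of the list and with lists of equal length, and at 250 bp the NRF1 ratio turned to 0.942. With 100 bp as the limit they were larger, 2.35 for SP1 and 1.61 for NRF1, and with canonical transcripts 2.21 and 1.56. For YY1, 68.9% and 71.0% were found (odds ratio 0.905, 95% interval 0.736 to 1.11, but 0.779 with 100 bp as the limit, where it passed), and for the core 6.95% and 5.77% (odds ratio 1.22, interval 0.824 to 1.81), both with adjusted p = 0.371 by the exact test.

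Members with SP1 within 100 bp scored above the members' median in 51.1% of cases, against 44.5% without (odds ratio 1.30, exact test, adjusted p = 0.0472). For NRF1 the shares were 52.8% and 46.2% (odds ratio 1.30, adjusted p = 0.0123), and for YY1 51.1% and 47.1% (odds ratio 1.18, adjusted p = 0.131; Fisher's exact tests over 4 comparisons). The SP1 and NRF1 calls were lost when only the highest summit of each peak was kept, with odds ratios of 1.06 and 1.16, as they were with 25 bp as the limit of a gene start and with neighbours within 50 or 250 bp, and for SP1 the ratio turned to 0.851 among the top 50% of the list.

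Gene groups were compared by the share of their genes with a ZNF143 summit within 50 bp of the 5′ end, beside 9.21% over all protein-coding genes. At this limit mitochondrial ribosomal proteins had the largest share, 35 of 82 (42.7%), led by MRPS25 with a score of 10451, MRPL46 with 9547 and MRPL54 with 6450. Proteasome subunits followed with 16 of 39 (41.03%), among them the regulatory particle subunits PSMD11 with 10688, PSMD3 with 8439 and PSMD4 with 5751. Of the core spliceosome list, 16 of 47 genes (34.0%) had a summit, led by SNRPA1 of the U2 particle with 4611. With 25 bp as the limit, the members fell from 1752 to 949. There 21 mitochondrial ribosomal, 11 spliceosome and 6 proteasome genes had a summit, with no share over all genes beside them. These shares describe the lists, which were matched by gene symbol, and no test of a list was made.

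Cytosolic ribosomal proteins had a summit in 20 of 86 genes (23.3%), and of the 19 members nearest to such a gene 7 scored above 1000, with a median of 72.3 and a highest score of 2285 at RPL24. Their distance from the mitochondrial list depended on the limit. With 100 bp, 44 cytosolic and 46 mitochondrial ribosomal genes had a summit, and with 500 bp 68 of 86 and 64 of 82. The wider limits also take in more genes outside the lists, and the share over all genes at 100 bp is not given here. Among the 17 lists at 500 bp, nucleoporins had the largest share (84.4%). HOX genes (15 of 39, 38.5%) and olfactory receptors (1 of 415) had the lowest. Over all genes, 13647 of the 19970 protein-coding starts had no ZNF143 summit within 500 bp. The HOX share at 500 bp was thus above that of all genes, which was not tested, and only the olfactory receptor share lay below it. RNA polymerase subunits had 10 of 34 (29.4%), which includes POLR2J2 and POLR2J3, near-identical copies. POLR1A, the largest subunit of RNA polymerase I, had 1998. Nucleoporins had 9 of 32 (28.1%), led by NUP88 with 6195. Kinetochore and checkpoint genes had 11 of 44 (25%), led by BIRC5, which encodes survivin, with 13037, while CENPJ, a centrosomal protein that matched by name, had 6295. Mediator and Integrator had 11 of 45 (24.4%), complex I of the respiratory chain 9 of 38 (23.7%) and complexes II to V 9 of 50 (18.0%), in which ATP5F1A, a catalytic-core subunit of ATP synthase, led with 2926.

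Aminoacyl-tRNA synthetases had 7 of 38 (18.4%), translation initiation factors 9 of 55 (16.4%), of which EIF2AK1, EIF2AK3 and EIF4EBP2 are regulators that matched by name, and DNA replication factors 6 of 41 (14.6%). CCT4 was the only one of 9 chaperonin subunits (11.1%). HOX genes had 2 of 39 (5.13%), HOXB13 and HOXD8, both with a score of 8.36. None of 415 olfactory receptor genes had one. The Wilson upper limit of that share is 0.917%, and the simpler limit of 3 counts in 415 is 0.723%. Numbered zinc finger genes often had high scores: 98 of 508 (19.3%) had a summit, and of the 96 members nearest to such a gene 49 scored above 1000, with a median of 1229 against 34.5 over all members. ZNF605 had 23083, ZNF133 14299 and ZNF354B 13263. High scores were not particular to this list. Of the 6 members nearest to a complex I gene 3 scored above 1000, with a median of 1637. For the proteasome list 7 of 15 did, with a median of 19.0.

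**Figure D5:**
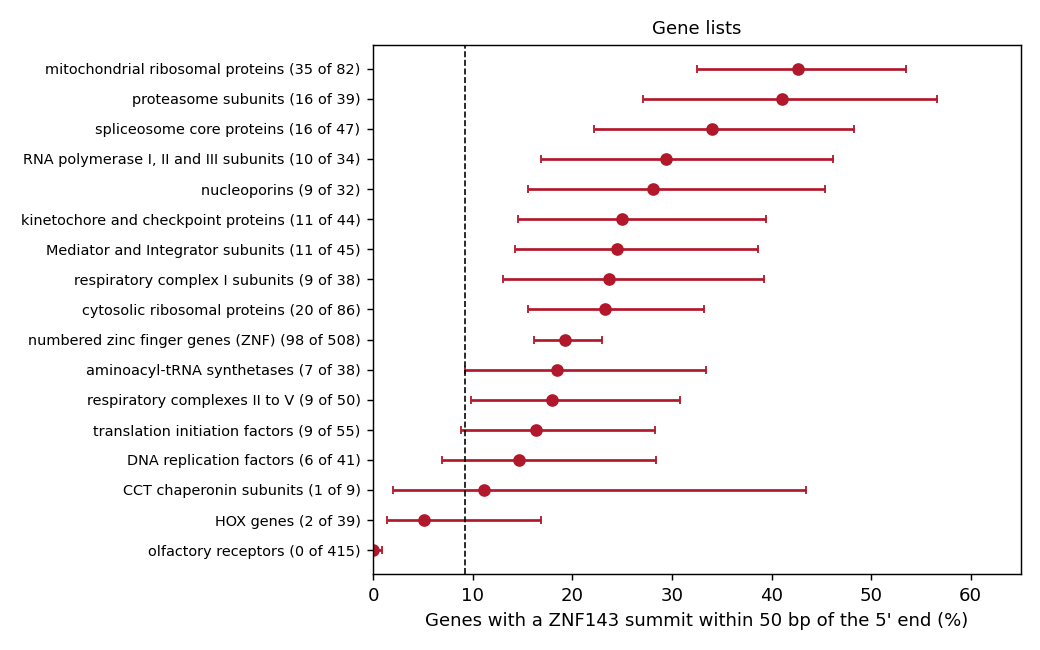
Percentage of genes in each list with a ZNF143 summit within 50 bp of the 5′ end, with Wilson 95% intervals and the number of genes beside each name. The dashed line marks 9.21%, the share over all protein-coding genes, and the shares run from 0 for olfactory receptors to 42.7% for mitochondrial ribosomal proteins.

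The choice of 5′ end bears on which summits count. The gene's outermost 5′ end was used, and it equals the 5′ end of the Ensembl canonical transcript for 9251 of the 19970 genes. With canonical transcripts there were 1816 summits within 50 bp, of which 1181 were among the 1752, and the odds ratios of the location tests kept their direction and calls.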

How the data were processed

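ChIP-seq samples of 1 HEK293T clone were summarised by the authors as 4 deposited lists of peak summits, 1 per antibody, and nothing was recounted from reads. From the layout and values of the deposited lists, each line holds a 1-bp position and a −log10 p-value or q-value, and which of the 2 is not given in the sources used here. The submitters' processing notes name hg38, cutadapt, Bowtie2, SAMtools 1.16.1, MACS3 and bedtools, without saying what each did. The antibody of the NRF1 and YY1 lists was taken from their file names. Scores grow with depth, which is unknown, and were compared only within a list.

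Summits on chromosomes 1 to 22 and X were assigned to the nearest GENCODE 44 protein-coding gene 5′ end, with the gene's outermost 5′ end used. Another factor counted as near within 100 bp. Letters were searched with 0 mismatches on both strands, wholly within 50 bp of the summit: the ZNF143 core CCCANNATG, the hexamer ACTACA, the SP1 GC box GGGCGG, the NRF1 site GCGCNTGCG, the YY1 site AANATGGCG, the ETS core CCGGAAG, the CCAAT box CCAAT and the TATA box TATAAA. Copies of different motifs could overlap. A match is a description, not a bound site. Shares were compared with two-sided Fisher's exact tests, adjusted by Benjamini-Hochberg within 10 comparisons of location, 4 of side and 4 of score, at a threshold of 0.05. Summits and genes are not replicates. The analysis used Python 3.11.15, numpy 2.4.6, pandas 2.3.3, scipy 1.17.1 and matplotlib 3.10.9, and the scripts were tested on simulated data.

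Named genes were the 20 highest scores, the 5 highest without another factor within 100 bp, up to 3 per gene list, up to 5 with the core on each side of the 5′ end, and the gene with the most summits. One gene that this rule names is not reported here. The members, the 17 gene lists and the tests were chosen with earlier results of these data known. Runs of at least 10 skipped peak numbers in the NRF1 or YY1 list mark regions that may have been filtered, and 8 members lay in them. The lists give no value per sample, so treated samples were not compared with untreated ones and mock samples were not analysed here.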

Additional observations from a re-analysis of the deposited data

How the results depend on the processing

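No paired analysis was possible because the lists hold no value per replicate, and leaving out replicates was not run for the same reason. Values below are odds ratios unless named otherwise, and the cause of each change was not tested. With 25 bp as the limit of a gene start there were 949 members and 138 listed genes with one (269 at 50 bp). There the core against upstream passed the threshold at 1.44, the comparisons of the 2 sides no longer passed for SP1 (1.33) and NRF1 (1.11), YY1 turned to 1.02, and the score comparisons no longer passed for SP1 (1.17) and NRF1 (1.22). With 100 bp there were 2865 members and 468 listed genes, and the YY1 difference between sides passed at 0.779. Among the top 50% of ZNF143 summits, NRF1 against upstream was 1.09, the score against upstream turned to 0.905, the sides gave 1.34 for SP1, 1.27 for NRF1 and, reversed, 1.06 for YY1, and the score comparisons gave 0.851 for SP1 (reversed), 1.14 for NRF1 and 0.953 for YY1 (reversed). With the highest summit of each peak, the score comparisons were 1.06 for SP1 and 1.16 for NRF1. With neighbours within 50 bp, the YY1 sides turned to 1.07 and the scores gave 1.15 for SP1 and 1.19 for NRF1. With neighbours within 250 bp, NRF1 against upstream was 1.15, the sides gave 1.44 for SP1 and, reversed, 0.942 for NRF1, and the scores gave 1.04 for SP1 and 1.16 for NRF1. With lists of equal length, the sides gave 1.27 for SP1 and 1.25 for NRF1, and the scores 1.07 for SP1 and, now past the threshold, 1.39 for YY1. SP1 and YY1 at gene starts against both sides, NRF1, the core and the score against downstream, and the score by core kept direction and call in every alternative run for them, but some moved by over 1.5 times: SP1 against upstream to 1.40 and against downstream to 3.46 with lists of equal length, SP1 against downstream to 3.71 among the top 50% and 10.1 with canonical transcripts, the score against downstream to 1.74 among the top 50%, and with 1 mismatch the score by core to 3.53 and the core against downstream to 1.37. With canonical transcripts, without the skipped regions, and with the core within 25 bp or with 1 mismatch, all recomputed tests kept direction and call. Unknown depth limits what an absent neighbour means.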

Other observations

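Members were spread unevenly over chromosomes. There were 12.02 members per 100 protein-coding genes on chromosome 16 and 11.2 on chromosome 19, against 4.89 on chromosome X and 5.26 on chromosome 18. All other chromosomes lay between 6.74 (chromosome 4) and 11.1 (chromosome 13), and these differences were not tested. The letters of NRF1 and YY1 went with their summits at members: an NRF1 summit lay within 100 bp of 108 of 114 members with GCGCNTGCG (94.7%, Wilson 95% interval 89.0 to 97.6%) and of 52.8% of those without it, with median NRF1 scores of 5423 and 36.0. A YY1 summit lay within 100 bp of 102 of 105 members with AANATGGCG (97.1%, 91.9 to 99.0%) and of 68.1% of those without, with median YY1 scores of 3442 and 307. For SP1 and the GC box the shares were 84.3% and 80.4%, with median SP1 scores of 310 and 271. These shares describe the lists and were not tested.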
